A study of Mus musculus with 66 samples.

Results

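The miR-17-92 and miR-106b-25 clusters were measured in the plasma of 13 C3H mice, 8 with hepatocellular carcinoma (HCC) and 5 without it (non-HCC). Their members were chosen by name as the 10 mature miRNAs for which these clusters are known, 6 from miR-17-92 (mmu-miR-17-5p, mmu-miR-18a-5p, mmu-miR-19a-3p, mmu-miR-20a-5p, mmu-miR-19b-3p and mmu-miR-92a-3p) and 4 from miR-106b-25 (mmu-miR-106b-5p, mmu-miR-106b-3p, mmu-miR-93-5p and mmu-miR-25-3p, the prefix being left out from here on). All 10 were found among the 1826 miRNAs of the count table, none was at 0 in any mouse, and all 10 were among the 1452 miRNAs tested. The mice were males of the inbred strain C3H, and the labels give every mouse, with or without HCC, as more than 12 months after radiation. Plasma was taken by cardiac puncture at necropsy. The paper reports both spontaneous and radiation-induced tumours among the HCC mice. The labels do not say which tumours arose spontaneously and which after irradiation, nor which single mice were irradiated. Plasma holds RNA released by many tissues and blood cells, so that a difference in cell number, in RNA per cell, in release and in clearance cannot be told apart.

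Each cluster is transcribed as 1 long precursor, which is cut into hairpins and then into mature miRNAs that guide a silencing complex to messenger RNAs through the seed, bases 2 to 8 of the miRNA. The miR-17-92 cluster is known as a MYC target and as an oncogenic cluster that represses cell cycle inhibitors and proapoptotic genes. The miR-106b-25 cluster is a paralogue that lies in Mcm7, a gene of the replication licensing helicase. Members of both clusters are abundant in proliferating cells and in blood cells of several lineages.

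The mature sequences show why the clusters can be compared by family as well as by locus, since 2 of the 5 seeds occur in both. They are RefSeq sequences on GRCm38.p6, matched by name for 10 of 10 members, and are printed 5′ to 3′ with the seed in capitals.
miR-17-5p: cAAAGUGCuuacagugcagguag
miR-20a-5p: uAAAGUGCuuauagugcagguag
miR-106b-5p: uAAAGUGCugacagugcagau
miR-93-5p: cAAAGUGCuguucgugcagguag
miR-18a-5p: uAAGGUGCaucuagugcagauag
miR-19a-3p: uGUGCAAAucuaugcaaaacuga
miR-19b-3p: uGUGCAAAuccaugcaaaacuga
miR-92a-3p: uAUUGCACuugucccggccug
miR-25-3p: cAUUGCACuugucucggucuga
miR-106b-3p: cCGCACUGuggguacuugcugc

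The seed AAAGUGC was shared by 4 members from both clusters, miR-17-5p, miR-20a-5p, miR-106b-5p and miR-93-5p. The seed AUUGCAC was shared by miR-92a-3p of miR-17-92 and miR-25-3p of miR-106b-25, which differed at 3 of 21 positions (U1C, C14U and C18U, counted from the 5′ end with the base of miR-92a-3p first). The seed GUGCAAA was carried by miR-19a-3p and miR-19b-3p, which differed only by U11C. miR-18a-5p carried the seed AAGGUGC, and miR-106b-3p, the 3′ arm of the Mir106b hairpin, carried CGCACUG.

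On GRCm38 the hairpins of miR-17-92 span chr14:115043671-115044506 on the plus strand, 836 bases within the long noncoding RNA gene Mir17hg (chr14:115042879-115046727). Each of these hairpins overlapped an exon of the 1 annotated Mir17hg transcript. The hairpins of miR-106b-25 span chr5:138165321-138165818 on the minus strand, 498 bases within the protein-coding gene Mcm7 (chr5:138164583-138172422). Mir106b lay in no exon of any annotated Mcm7 transcript, whereas Mir93 and Mir25 each overlapped an exon of 1 of the 10 annotated Mcm7 transcripts. miR-19b-3p and miR-92a-3p are also encoded on chromosome X, by Mir19b-2 and Mir92-2 of the miR-106a-363 cluster, and their counts cannot be assigned to either copy.

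Amplified copies of a molecule were collapsed by a barcode, the unique molecular index (UMI), and the table gave 9513136 to 14247488 miRNA UMIs per mouse. The members were deeply covered, with a lowest count of 506 UMIs, and the spread between mice rather than counting error set their precision. A pair of scales was used to compare mice. The spike-in scale divides by the mean count of UniSP2 and UniSP4, synthetic RNAs added before isolation, and the TMM scale (trimmed mean of M values) is computed from the miRNA counts themselves. The spike-in factor, relative to its geometric mean, ranged from 0.347 to 1.96, and HCC mice 5 and 2 held the lowest values, 0.347 and 0.366. All miRNAs of these 2 mice were therefore raised on the spike-in scale, whereas TMM factors ranged from 0.830 to 1.39.

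Among the HCC libraries, 3 pairs were far more alike than the rest. Over 253 miRNAs with at least 100 UMIs in every mouse, the SD of the log2 ratio was 0.207 to 0.245 within these pairs (mice 1 and 6, 2 and 5, and 3 and 7) and 0.793 to 1.61 in the other 25 pairs of HCC mice. Non-HCC pairs lay between 0.369 and 0.775. The 3 pairs still differed by more than counting noise, with a chi-square per degree of freedom of 101 to 266. Libraries prepared from the same plasma could do so too, so this value does not show that they are separate mice. They were kept as separate mice because the labels give each mouse its own number. The fits and the ratios that rest on them were also computed with each pair summed to 1 library, which leaves 5 HCC libraries.

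The 10 members together made up 2.77% to 12.0% of the miRNA UMIs in HCC mice, with a median of 6.01%, and 9.46% to 11.1% in non-HCC mice, with a median of 10.5%. The lowest shares were those of HCC mice 6 and 1 (2.77% and 2.98%) and the highest was that of HCC mouse 7. In 6 of 8 HCC mice the share was below that of every non-HCC mouse. In HCC mice the share of liver miRNAs varied at the same time. The summed share of 4 liver miRNAs (miR-192-5p, miR-194-5p and both arms of miR-122) was 3.82% to 51.0% with HCC and 0.649% to 0.898% without it, and HCC mice 6 and 1 held the highest values, 51.0% and 49.4%. A share depends on all other miRNAs of the library. On the spike-in scale the summed log2 level of the members was also lowest in HCC mice 1 and 6. It was 18.00 and 18.79 there and 19.52 to 20.72 in non-HCC mice. The part of the liver miRNAs in the shares of the members was not tested. Below, UMIs are raw counts before any scaling, and the order of the mice is given for the scaled levels.

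The miR-106b-25 cluster was the more abundant in all 13 mice, although it has fewer members. Its 4 members summed to 172426 to 1041131 UMIs with HCC and 754793 to 1193968 without it. The 6 members of miR-17-92 summed to 97385 to 372812 UMIs with HCC and 267159 to 350145 without it. Within each cluster a few members carried nearly all of the UMIs. By seed, miR-92a-3p and miR-25-3p held 57.6% ± 5.77 (SD, n = 13 mice) of the member UMIs and the 4 miRNAs with the seed AAAGUGC held 38.6% ± 4.69. miR-106b-3p held 2.45% ± 1.05, the pair of miR-19 members 1.00% ± 0.378 and miR-18a-5p 0.290% ± 0.0795. How efficiently each sequence is captured in a library was not measured, so that the order of levels is an order of UMIs.

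By mean log2 level on the spike-in scale over the 13 mice the order was miR-25-3p (18.28), miR-93-5p (18.20), miR-92a-3p (17.44), miR-20a-5p (14.61), miR-106b-3p (14.24), miR-19b-3p (12.64), miR-17-5p (12.24), miR-106b-5p (11.83), miR-18a-5p (11.25) and miR-19a-3p (10.81). The scale cancels when neighbours are compared within a mouse. miR-25-3p and miR-93-5p differed by less than the SD among mice, with a log2 ratio of 0.08 ± 0.24 (SD, n = 13). So did miR-20a-5p and miR-106b-3p, at 0.37 ± 0.64, miR-19b-3p and miR-17-5p, at 0.40 ± 0.55, and miR-18a-5p and miR-19a-3p, at 0.44 ± 0.55. In the order given, the first of each pair was higher in 10, 8, 9 and 11 of 13 mice. The SD is a spread among mice and not the error of a mean, so that it does not show equal levels. The widest step of the order, 2.83 ± 0.49 between miR-92a-3p and miR-20a-5p, was seen in 13 of 13 mice.

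**Figure D1:**
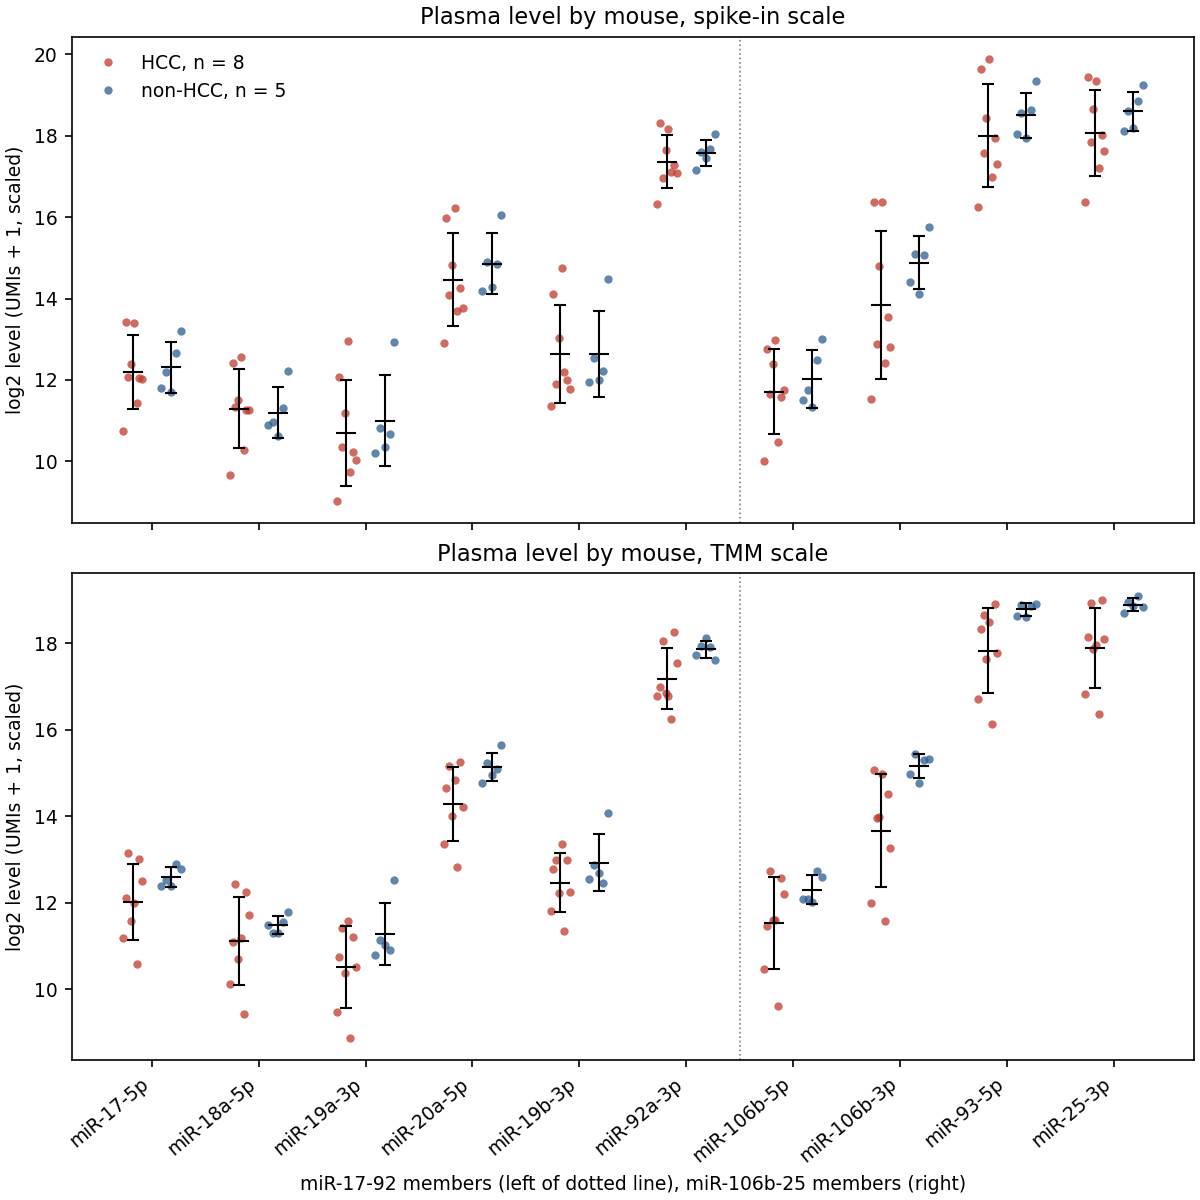
Log2 level of each member (UMIs plus 1, divided by the scale factor of the mouse) on the spike-in scale (top) and the TMM scale (bottom). Each point is 1 mouse, red for HCC (n = 8) and blue for non-HCC (n = 5), and black bars are the mean and SD. The SD is wider in HCC than in non-HCC mice for every member on both scales, for example 1.31 and 0.276 for miR-106b-3p and 0.982 and 0.149 for miR-93-5p on the TMM scale.

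The first comparison asked whether any member differed between HCC and non-HCC plasma. No member passed the threshold on either scale (edgeR's quasi-likelihood test, Benjamini-Hochberg adjusted over the 1452 miRNAs tested). On the spike-in scale 109 of all miRNAs tested, 7.51%, were called, all of them higher in HCC. The lowest adjusted p of a member on this scale was 0.904, and 0 members were under an unadjusted p of 0.05, against 19.5% of all miRNAs tested. On the TMM scale 139 miRNAs were called, 9.57%, of which 107 were higher (7.37%) and 32 lower (2.2%), and the lowest adjusted p of a member was 0.180. By an unadjusted p of 0.05, 1 member was lower on the TMM scale, miR-106b-3p, against 22% of all miRNAs tested in either direction. On the spike-in scale the groups overlapped for all 10 members, whereas 22 miRNAs (1.52%) were higher in every HCC mouse than in any non-HCC mouse. On the TMM scale the groups overlapped for all 10 members too, against 54 miRNAs (3.72%) without overlap in the higher and 29 (2%) in the lower direction.

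The fold changes of the members lay below the median of all miRNAs tested on both scales, without being called. The median log2 fold change (HCC over non-HCC) of the 10 members was -0.13 on the spike-in scale, where that of all miRNAs tested was 0.78. It was -0.61 on the TMM scale, where that of all miRNAs tested was 0.17. A fold change below 0 was found for 7 of 10 members on the spike-in scale and for 19.1% of all miRNAs tested, and for 10 of 10 members and 41.8% of all on the TMM scale. Members of a cluster come from 1 transcript and are not independent, so these counts are descriptions. Relative to the median of all miRNAs, the members lay between -1.07 (miR-25-3p) and -0.55 (miR-18a-5p) on the spike-in scale and between -1.28 (miR-106b-3p) and -0.26 (miR-18a-5p) on the TMM scale.

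**Figure D2:**
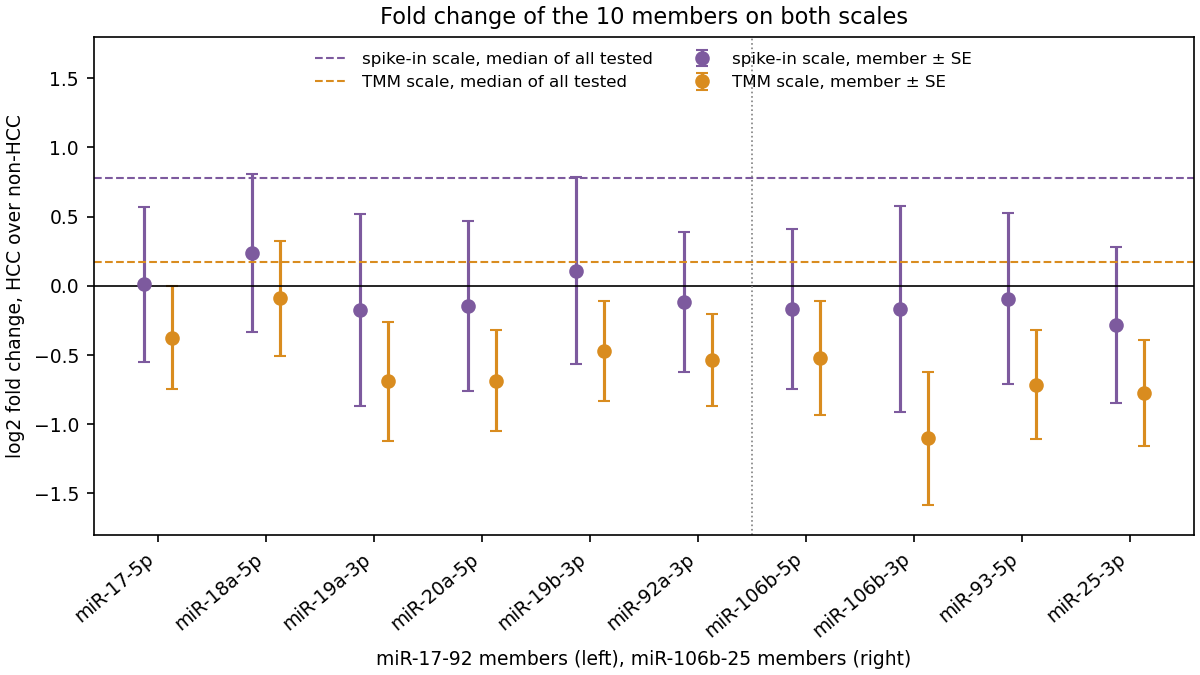
Log2 fold change of HCC over non-HCC with its standard error for the 10 members, on the spike-in scale (purple) and the TMM scale (orange), with dashed lines at the median of all 1452 miRNAs tested (0.78 and 0.17). On the spike-in scale the members lie between -0.28 and 0.24, and on the TMM scale between -1.10 and -0.09, so that 3 members change sign with the scale.

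The miRNAs with the seed AAAGUGC are known to repress the cell cycle inhibitor Cdkn1a and the apoptotic factor Bcl2l11. miR-93-5p, the most abundant of them, gave 77315 UMIs in the lowest and 493084 in the highest HCC mouse, and 412132, 557734, 333586, 506473 and 504639 UMIs in the 5 non-HCC mice. By level, on the spike-in scale 5 HCC mice were below and 2 (mice 2 and 5, at 19.64 and 19.89) above all non-HCC mice, and on the TMM scale 6 were below and 1 above. Its log2 fold change was -0.09 on the spike-in scale (95% interval -1.37 to 1.19) and -0.71 on the TMM scale (-1.55 to 0.12), which by edgeR's quasi-likelihood test was not called (Benjamini-Hochberg adjusted p = 0.315).

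miR-20a-5p, a member of miR-17-92, gave 7859, 23187 and 38621 UMIs in the lowest, median and highest HCC mice and 28508, 43994, 26441, 36981 and 52093 UMIs in the non-HCC mice. By level, 4 HCC mice were below and 1 above all non-HCC mice on the spike-in scale, and 5 were below and none above on the TMM scale. Its log2 fold change was -0.15 (-1.42 to 1.13) on the spike-in scale and -0.68 (-1.46 to 0.09) on the TMM scale, close to the values of miR-93-5p.

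miR-17-5p and miR-106b-5p were far less abundant than the other two members of this seed. miR-17-5p gave 1657, 4151 and 8246 UMIs in the lowest, median and highest HCC mice and 5446, 6768, 4449, 8025 and 7215 in the non-HCC mice. miR-106b-5p gave 849, 3553 and 6030 UMIs in HCC mice and 4449, 4958, 3423, 7225 and 6295 in non-HCC mice. For miR-17-5p, 2 HCC mice were below and 2 above all non-HCC mice on the spike-in scale, and 5 and 2 on the TMM scale. For miR-106b-5p, 2 were below on the spike-in and 5 on the TMM scale, and none was above on either. The log2 fold change of miR-17-5p was 0.01 (-1.15 to 1.17) on the spike-in scale and -0.38 (-1.16 to 0.41) on the TMM scale. That of miR-106b-5p was -0.17 (-1.36 to 1.03) on the spike-in scale and -0.52 (-1.40 to 0.36) on the TMM scale.

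The miRNAs with the seed AUUGCAC were among the 3 most abundant members. miR-25-3p gave 90980, 276057 and 518602 UMIs in the lowest, median and highest HCC mice and 434083, 580355, 394464, 595264 and 477308 UMIs in the non-HCC mice. On the spike-in scale 5 HCC mice were below and 2 (mice 2 and 5, at 19.45 and 19.35) above all non-HCC mice, and on the TMM scale 6 were below and none above. Its log2 fold change was -0.28 (-1.45 to 0.89) on the spike-in scale, the lowest of all members, and -0.78 (-1.58 to 0.03) on the TMM scale (edgeR's quasi-likelihood test, Benjamini-Hochberg adjusted p = 0.249).

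miR-92a-3p, a miRNA also known from endothelial and red cells, gave 83825 UMIs in the lowest and 310722 in the highest HCC mouse, and 222424, 285355, 236385, 260277 and 204465 UMIs in the non-HCC mice. By level, 4 HCC mice were below and 2 above all non-HCC mice on the spike-in scale, and 6 and 1 on the TMM scale. Its log2 fold change was -0.12 (-1.16 to 0.93) on the spike-in scale and -0.54 (-1.24 to 0.17) on the TMM scale. It varied least among mice of all members on both scales, with an SD over 13 mice of 0.55 on the spike-in and 0.64 on the TMM scale.

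miR-19a-3p and miR-19b-3p are known as the members that carry much of the oncogenic activity of miR-17-92. miR-19a-3p gave 506, 1704 and 2773 UMIs in the lowest, median and highest HCC mice and 1793, 2587, 1730, 2037 and 5999 UMIs in the non-HCC mice. miR-19b-3p gave 2792, 6541 and 9515 UMIs in HCC mice and 6093, 8552, 5446, 5983 and 17565 in non-HCC mice. Non-HCC mouse 5 was the highest of all 13 mice for both by UMIs, and without it the log2 fold change on the spike-in scale went from -0.18 to 0.72 for miR-19a-3p and from 0.11 to 0.94 for miR-19b-3p, neither of them called. On the TMM scale the log2 fold changes were -0.69 (-1.60 to 0.22) and -0.47 (-1.24 to 0.30), with 5 and 4 HCC mice below all non-HCC mice and none above. For each, 3 HCC mice were below and 1 above on the spike-in scale.

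miR-18a-5p, the only member with its seed, gave 746, 2217 and 4845 UMIs in the lowest, median and highest HCC mice and 2895, 2889, 2090, 3170 and 3607 UMIs in the non-HCC mice. By level, 2 HCC mice were below and 2 above all non-HCC mice on the spike-in scale, and 5 and 2 on the TMM scale. Its log2 fold change was 0.24 (-0.95 to 1.42) on the spike-in scale and -0.09 (-0.97 to 0.79) on the TMM scale, the highest of the 10 members on both.

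miR-106b-3p, the arm of Mir106b opposite to miR-106b-5p, had the largest fold change of the members on the TMM scale. Its levels on that scale were 11.57 in the lowest, 13.97 in the median and 15.06 in the highest HCC mouse, and 14.98, 15.44, 14.78, 15.31 and 15.32 in the 5 non-HCC mice. In 6 of 8 HCC mice the level was below that of every non-HCC mouse, and HCC mice 2 and 5, at 15.06 and 14.97, lay within the non-HCC range. Its log2 fold change was -1.10 (SE 0.48, 95% interval -2.12 to -0.09), which edgeR's quasi-likelihood test did not call (Benjamini-Hochberg adjusted p = 0.180). By mean log2 level the difference was -1.50 (exact two-sided permutation test over 1287 splits of the mice, p = 0.0256, and 0.137 after adjustment over all miRNAs tested).

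On the spike-in scale HCC mice lay on both sides of the non-HCC range for the same miRNA. HCC mice 2 and 5 held its highest levels of all 13 mice, 16.38 and 16.37, above the non-HCC range of 14.10 to 15.75, and 5 HCC mice lay below that range. The log2 fold change was -0.17 (-1.70 to 1.37), with the widest interval of all members. By mean log2 level the difference was -1.04 (exact two-sided permutation test over 1287 splits of the mice, p = 0.245). HCC mice 2 and 5 had the lowest spike-in counts and were left out of a further fit after the data were seen. In that fit the log2 fold change was -1.63 on the spike-in scale and -1.62 on the TMM scale. The latter was called (edgeR's quasi-likelihood test, Benjamini-Hochberg adjusted p = 0.0401), the only member called in any setting. These mice were the only HCC mice within the non-HCC range on the TMM scale, which does not use the spike-ins. Leaving them out therefore favoured the call. With each of the 3 similar pairs summed to 1 library miR-106b-3p was not called. The lowest adjusted p of a member on the TMM scale was then 0.254 (edgeR's quasi-likelihood test).

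The hairpin of Mir106b (chr5:138165737-138165818, minus strand, 82 bases) is printed because both of its arms are members. The capitals mark miR-106b-5p and miR-106b-3p.
Mir106b: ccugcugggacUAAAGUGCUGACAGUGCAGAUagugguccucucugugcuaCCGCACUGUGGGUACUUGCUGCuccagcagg

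Both arms come from the same precursor. Their ratio within a mouse, like every ratio of counts from 1 library, does not depend on the scale. The 3′ arm was the more abundant in all 13 mice. miR-106b-3p was 5.94 to 10.3 times as abundant as miR-106b-5p in non-HCC mice, and 2.08 to 12.2 times in HCC mice, with a median of 3.87. In 6 of 8 HCC mice the ratio was below that of every non-HCC mouse, and in HCC mice 2 and 5, at 12.2 and 10.4, it was above. With the similar pairs summed, the 5 HCC libraries gave 3.29, 11.3, 3.12, 5.23 and 2.08, so that 4 of them stayed below the non-HCC range.

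A ratio of arms with the same split was seen at Mir17. miR-17-3p was 0.306 to 0.404 times as abundant as miR-17-5p in non-HCC mice and 0.145 to 0.535 times in HCC mice, with 6 HCC mice below and mice 2 and 5 above the non-HCC range. With the similar pairs summed, 4 of 5 HCC libraries were below it and 1 above. HCC mouse 4, at 0.304, was only just below that range. At Mir18 the ratio of miR-18a-3p to miR-18a-5p was 0.354 to 0.704 in non-HCC mice and 0.251 to 0.489 in HCC mice, with 3 HCC mice below that range (2 of 5 libraries with pairs summed). The minor arms of Mir93 and Mir25 were scarce relative to the major arms. miR-93-3p was 0.00514 to 0.00788 times as abundant as miR-93-5p in non-HCC mice and 0.00448 to 0.0133 times in HCC mice. miR-25-5p was 0.00150 to 0.00188 times as abundant as miR-25-3p in non-HCC mice and 0.00143 to 0.00244 times in HCC mice, and 7 of 8 HCC mice (4 of 5 libraries with pairs summed) were above the non-HCC range.

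The second comparison asked whether the clusters changed to a different extent. The median log2 fold change was -0.05 for the 6 members of miR-17-92 and -0.17 for the 4 of miR-106b-25 on the spike-in scale. It was -0.50 and -0.74 on the TMM scale. The ratio of the summed UMIs of miR-17-92 to those of miR-106b-25 needs no scale. It was 0.302, 0.293, 0.366, 0.275 and 0.282 in the non-HCC mice and 0.244 to 0.574 in the HCC mice, with a median of 0.357. HCC mice 1, 6 and 8, at 0.574, 0.565 and 0.434, were above all non-HCC mice, and HCC mice 2 and 5, at 0.263 and 0.244, were below all of them. On the log2 scale the means were -1.43 ± 0.46 (SD, n = 8) and -1.73 ± 0.16 (SD, n = 5), a difference of 0.30 that is smaller than the SD among HCC mice. With the similar pairs summed, the 5 HCC libraries gave 0.570, 0.254, 0.357, 0.315 and 0.434, of which 2 were above and 1 below the non-HCC range, and the difference was again 0.30. No p is given for a sum over members.

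The sums are led by miR-92a-3p and by miR-25-3p and miR-93-5p. Leaving out the most abundant member of each cluster gave a difference of 0.25, and leaving out miR-19b-3p and miR-92a-3p, the members with a copy on chromosome X, gave 0.21. Weighting all members alike, by mean log2 level, gave 0.44. There miR-106b-3p counted as much as each other member of its cluster. On the spike-in scale its mean log2 level differed between the groups by -1.04, and the rest of its cluster by -0.31 to -0.54. Each of these differences in the cluster ratio was in the same direction, higher for miR-17-92 relative to miR-106b-25 in HCC mice, with overlapping groups. They rest on the same counts and are not independent of each other.

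**Figure D3:**
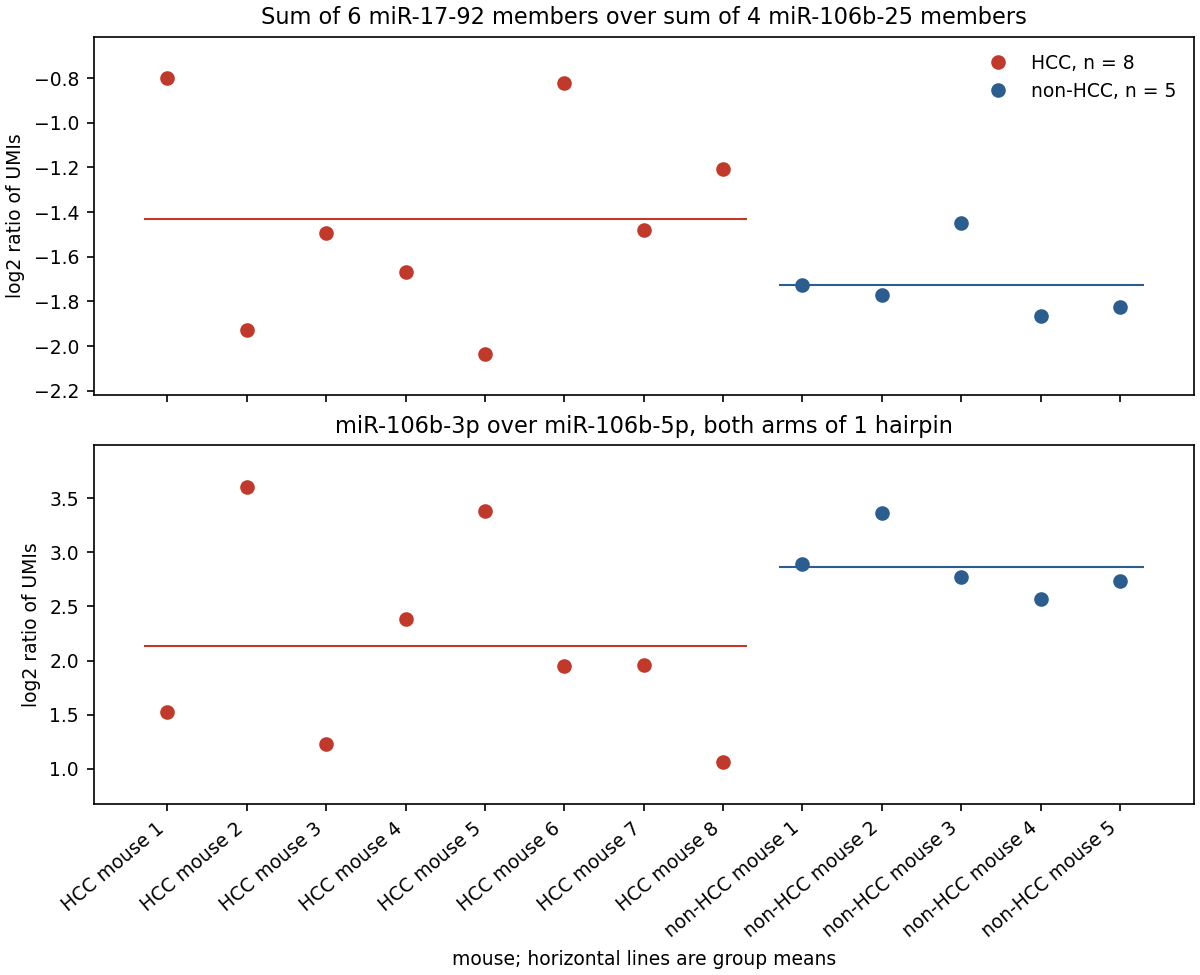
Log2 ratio of the summed UMIs of the 6 miR-17-92 members to those of the 4 miR-106b-25 members (top) and log2 ratio of miR-106b-3p to miR-106b-5p (bottom) in each mouse. Points are mice, red for HCC and blue for non-HCC, and horizontal lines are group means. HCC mice 2 and 5 are the lowest in the top panel and HCC mice 1, 3, 6, 7 and 8 the lowest in the bottom panel.

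Pairs of members with 1 seed from both clusters allowed the comparison within a family, and did not all go in the same direction. The mean log2 ratio in HCC less that in non-HCC mice was 0.32 for miR-92a-3p to miR-25-3p and 0.19 for miR-17-5p to miR-106b-5p. It was 0.37 for miR-17-5p and 0.10 for miR-20a-5p to miR-93-5p, and -0.08 for miR-20a-5p to miR-106b-5p. The ratio of miR-92a-3p to miR-25-3p was 0.428 to 0.599 in non-HCC mice and 0.440 to 0.975 in HCC mice, where mice 1 and 6, at 0.975 and 0.921, were the highest (0.949 when summed). The ratio of miR-17-5p to miR-106b-5p was 1.11 to 1.36 in non-HCC and 0.992 to 1.95 in HCC mice. Within miR-106b-25 the ratio of miR-93-5p to miR-25-3p stayed close to 1, at 0.846 to 1.06 in non-HCC and 0.808 to 1.46 in HCC mice. Within miR-17-92 the ratio of miR-19b-3p to miR-19a-3p was 2.93 to 3.40 in non-HCC and 2.96 to 5.51 in HCC mice, and 6 of 8 HCC mice (3 of 5 libraries with pairs summed) were above the non-HCC range.

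Co-variation of the members was described as the SD over the 13 mice of the log2 ratio of a pair, which is small when both move together and does not depend on the scale. For single members the SD of the level was 0.55 to 1.53 on the spike-in scale and 0.64 to 1.26 on the TMM scale. Pairs within miR-17-92 had SDs of 0.19 to 0.73, with a median of 0.44 over 15 pairs, and pairs within miR-106b-25 had SDs of 0.24 to 0.83, with a median of 0.46 over 6 pairs. Pairs between the clusters had SDs of 0.18 to 1.02, with a median of 0.50 over 24 pairs. With the similar libraries summed, the medians over 10 libraries were 0.44, 0.44 and 0.47. These medians depend on miR-106b-3p. Within miR-106b-25 the pairs without it had SDs of 0.24, 0.29 and 0.39 over the 13 mice, and those with it 0.53, 0.69 and 0.83. Between the clusters the pairs without it had SDs of 0.18 to 0.65, and those with it 0.64 to 1.02. The pairs shared libraries and members, so that no test was made.

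The pair that moved most closely together lay across the clusters and shared the seed AAAGUGC. It was miR-20a-5p with miR-93-5p, at an SD of 0.18, followed by miR-17-5p with miR-18a-5p at 0.19 and miR-93-5p with miR-25-3p at 0.24. miR-19a-3p and miR-19b-3p, of 1 seed and 1 cluster, had an SD of 0.29. At the other end, miR-106b-3p had SDs of 0.53 to 1.02 with the other members, the highest with miR-92a-3p, and 0.83 with miR-106b-5p from its own hairpin. All pairs over 0.8 included miR-106b-3p, which with the similar libraries summed had an SD of 0.92 with miR-92a-3p and 0.78 with miR-106b-5p.

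**Figure D4:**
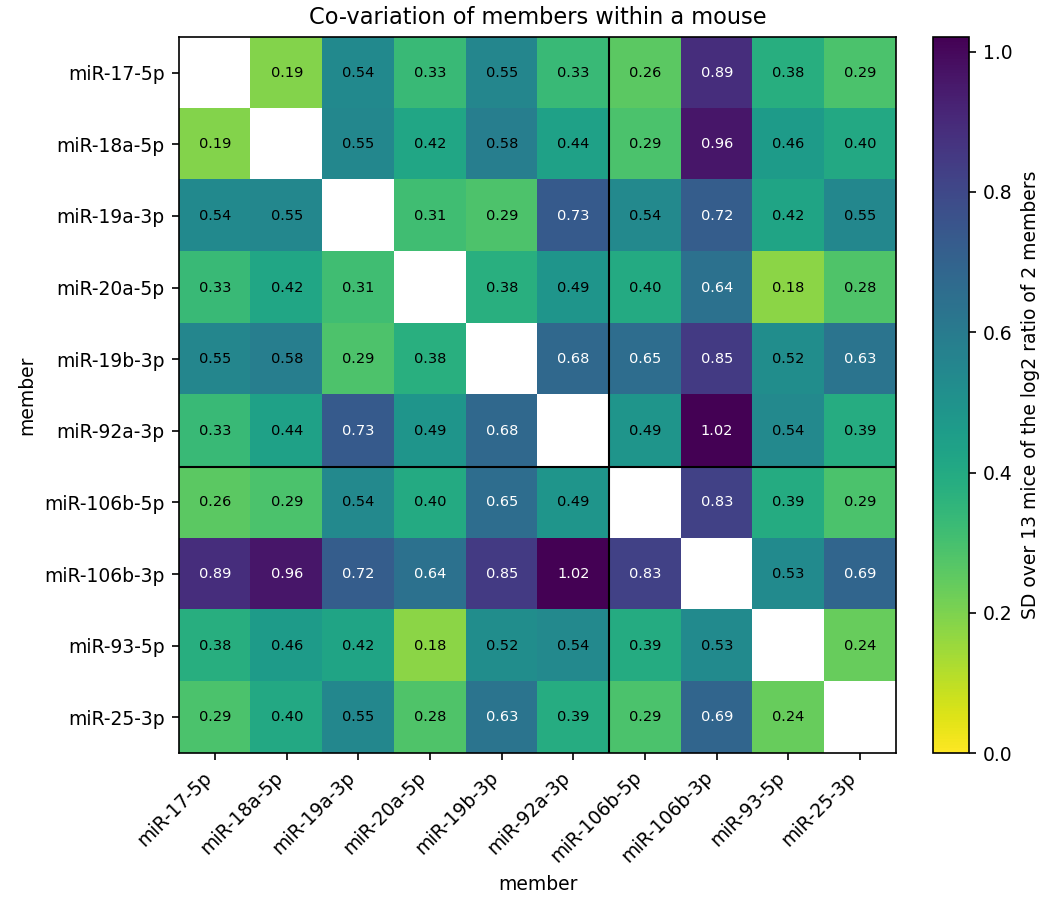
SD over 13 mice of the log2 ratio of each pair of members, from yellow (0, moving together) to dark purple (1.02), with black lines between the clusters. The row of miR-106b-3p holds the darkest cells, with SDs of 0.53 to 1.02, and the lightest cells are miR-20a-5p with miR-93-5p (0.18) and miR-17-5p with miR-18a-5p (0.19).

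The miRNAs outside the member list that followed each cluster most closely were ranked by the same SD, against the summed UMIs of the cluster and over the same 13 mice. For miR-106b-25 they were miR-16-5p (0.11), miR-16-2-3p (0.17), miR-18a-3p (0.20), miR-5113 (0.21) and miR-421-3p (0.21), where the median of the 243 miRNAs ranked was 0.94. For miR-17-92 they were miR-1198-5p (0.13), let-7b-3p (0.16), miR-25-5p (0.19), miR-93-3p (0.19) and miR-676-3p (0.21), where the median was 0.82. The minor arms of the miR-106b-25 hairpins, miR-25-5p and miR-93-3p, were thus among the 5 closest to miR-17-92, and miR-18a-3p of miR-17-92 was among the 5 closest to miR-106b-25. Of the red cell miRNAs ranked, miR-486a-5p had an SD of 0.41 with miR-106b-25 and 0.51 with miR-17-92, miR-451a had 0.69 and 1.05, and miR-144-3p had 0.77 and 1.09. miR-486a-5p was thus below the median for both clusters, and the other two were below it for miR-106b-25 and above it for miR-17-92.

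The opposite arms of the member hairpins ranged from 0 UMIs (miR-19a-5p and miR-20a-3p in the lowest HCC mouse) to 3585 (miR-93-3p in the highest non-HCC mouse). None of the 8 tested was called on either scale (edgeR's quasi-likelihood test, background 7.51% and 9.57%). Their median log2 fold change was -0.12 on the spike-in scale and -0.72 on the TMM scale, beside -0.13 and -0.61 for the members. On the TMM scale 8 of 8 lay below 0 (41.8% of all miRNAs tested) and 3 were under an unadjusted p of 0.05 (22% of all), among them miR-93-3p at -0.70 (SE 0.26, Benjamini-Hochberg adjusted p = 0.110).

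The paralogous miR-106a-363 cluster on chromosome X gave few UMIs of its own, 715 to 2245 in HCC and 1704 to 2530 in non-HCC mice over the 10 miRNAs that are not shared with miR-17-92. Its leading members differ from those of miR-17-92 by few bases. miR-106a-5p differs from miR-17-5p by U10A, and miR-20b-5p differs from miR-20a-5p by U1C and U10C. miR-106a-5p reached 0.0370 to 0.0802 of the UMIs of miR-17-5p, and miR-20b-5p reached 0.0282 to 0.0438 of those of miR-20a-5p. Of its 10 miRNAs 9 were tested and none was called on either scale, with a median log2 fold change of -0.10 on the spike-in and -0.54 on the TMM scale. A member of that cluster, miR-363-3p, also carries the seed AUUGCAC, and its log2 fold change was -0.20 on the spike-in and -0.76 on the TMM scale. The remaining miRNAs with this seed, miR-92b-3p and miR-32-5p, were not called either, at -0.41 and 0.35 on the spike-in scale and -0.78 and -0.29 on the TMM scale.

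Markers of blood cells, like the members, had median fold changes below 0 on both scales. The 4 red cell miRNAs (miR-486a-5p, miR-451a and both arms of miR-144) summed to log2 levels of 16.52 to 20.80 in HCC and 19.46 to 20.92 in non-HCC mice on the spike-in scale. On the TMM scale they were 16.38 to 19.86 in HCC and 20.05 to 20.50 in non-HCC mice, and all 8 HCC mice were below all non-HCC mice. None of the 4 was called on either scale, with median log2 fold changes of -0.74 and -1.41. HCC mice 6 and 1, lowest in the members, were also lowest in this list. The ratio of miR-451a to miR-23a-3p, a common measure of red cell RNA in plasma, was 12.0 to 21.1 in non-HCC mice and 0.383 to 10.7 in HCC mice, below the non-HCC range in 8 of 8. Its denominator lay higher in HCC mice, since miR-23a-3p had a log2 fold change of 1.48 on the spike-in and 0.72 on the TMM scale, neither called, so that the ratio is not a measure of red cell RNA alone. The paper reports that platelets were removed from the plasma and that samples above a hemoglobin limit were left out. The part of red cell RNA in the levels of the members was not tested.

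The 5 platelet and leukocyte miRNAs (miR-126a-3p, miR-150-5p, miR-223-3p and both arms of miR-142a) had summed log2 levels on the TMM scale of 16.86 to 18.16 in HCC and 18.24 to 19.35 in non-HCC mice, and 4 of the 5 were called lower in HCC on that scale, by edgeR's quasi-likelihood test. On the spike-in scale their levels were 16.41 to 19.01 and 17.65 to 19.78, and none was called. The 4 liver miRNAs were called higher in HCC on both scales, with median log2 fold changes of 5.62 and 4.48. The 4 muscle miRNAs (miR-499-5p, miR-206-3p, miR-133a-3p and miR-1a-3p) were not called on either scale, with summed levels of 11.78 to 17.81 in HCC and 13.63 to 15.10 in non-HCC mice on the spike-in scale. The part of these cell types in the levels of the members was not tested.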

How the data were processed

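Small RNA of plasma from 13 male C3H mice was sequenced with molecular barcodes. The authors mapped reads to GRCm38, named miRNAs after miRBase, collapsed the barcodes and deposited a raw, not normalized UMI count for every miRNA in each mouse (per the labels, Bowtie2 and FastQC were used, with versions not given in the sources used here). The lowest listed count above 0 was 10. Groups were taken from the labels, and columns were matched by mouse number. A table with 53 columns for F2 mice was not used, because its column names match no label, so co-variation over those mice was not analysed here.

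HCC and non-HCC mice were compared with the quasi-likelihood test of edgeR 4.0.16 (R 4.3.3) over every miRNA that reached 5 UMIs in 5 or more mice, with the mean of UniSP2 and UniSP4 as the library scale, as in the paper's methods, or with TMM. P-values were adjusted by Benjamini-Hochberg at a threshold of 0.05. The standard error is the log2 fold change over the square root of F. For a level, 1 UMI was added to the count, which was divided by the scale factor and taken to log2. An exact two-sided permutation test over 1287 splits was added for single miRNAs, whose smallest p is 0.000777. Python 3.11.15, numpy 2.4.6, pandas 2.3.3 and matplotlib 3.10.9 were used. The comparison was tested on simulated counts. The same-numbered mice of both groups were checked for pairing and share only a number.

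Alternatives were limma 3.58.1, DESeq2 1.42.0, each spike-in alone, no filter, a filter of 20 UMIs, a replicate block and each mouse left out. Leaving out HCC mice 2 and 5, and summing the similar libraries, were added after the data were seen. The members and lists were chosen with earlier results of these data known. All 10 members, the opposite arms, the miR-106a-363 cluster, 2 other miRNAs of the miR-92a seed, the marker lists and, per cluster, the 5 most alike miRNAs with at least 100 UMIs in every mouse are named. The arm ratios of single hairpins were looked at without a test. Sequences and hairpins come from RefSeq (GRCm38.p6), and gene positions from the GRCm38 annotation.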

Additional observations from a re-analysis of the deposited data

Results flagged for a closer look

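Of 44 checks of 1 group for a mouse apart from the others, over the levels of the 10 members on both scales, the ratio of the clusters and the ratio of the Mir106b arms, 4 found a mouse, and chance alone gives about 1 in 20. All 4 were non-HCC mouse 5 and a miR-19 member. Its miR-19a-3p level was 12.94 on the spike-in scale, where the nearest non-HCC mouse was at 10.81, and 12.52 on the TMM scale, with the nearest at 11.14. Its miR-19b-3p level was 14.49 on the spike-in scale, with the nearest at 12.53, and 14.07 on the TMM scale, with the nearest at 12.87. The ratio of miR-19b-3p to miR-19a-3p in this mouse was 2.93, the lowest of all 13 mice. A cause was not tested.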

How the results depend on the processing

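No member was called under any alternative on the spike-in scale, nor on the TMM scale except without HCC mice 2 and 5, where 1 was called (miR-106b-3p, -1.62). Those mice were the only HCC mice within the non-HCC range of miR-106b-3p on the TMM scale, so that leaving them out favoured the call. The number of all miRNAs called on the spike-in scale, 109, depended on the test and the mice. It was 44 with limma, 217 with DESeq2 and its own size factors, 181 with DESeq2 and spike-in factors, 53 without HCC mice 2 and 5, and 44 to 157 with single mice left out. It was lower by over 1.5 times when HCC mouse 2 (65) or non-HCC mouse 1 (44), 2 (47), 3 (47) or 4 (53) was left out. Summing the similar libraries gave 97.

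Fold changes near 0 turned with the setting. Against its spike-in value, miR-17-5p went to -0.38 with TMM, -0.12 with limma, -0.33 with DESeq2's own factors, -0.55 without HCC mice 2 and 5 and -0.0386 with libraries summed. miR-18a-5p went to -0.0904 with TMM, -0.0414 with DESeq2's own factors and -0.29 without HCC mice 2 and 5, and on the TMM scale to 0.0870 with a filter of 20 UMIs. miR-19b-3p went to -0.47 with TMM, -0.0027 with limma, -0.44 with DESeq2's own factors, -0.89 without HCC mice 2 and 5 and -0.0091 with libraries summed. Single mice left out turned miR-17-5p (-0.21 to 0.30), miR-19a-3p (-0.74 to 0.72), miR-20a-5p (-0.50 to 0.29), miR-19b-3p (-0.39 to 0.94), miR-92a-3p (-0.28 to 0.0136), miR-106b-5p (-0.39 to 0.15), miR-106b-3p (-0.63 to 0.10) and miR-93-5p (-0.47 to 0.17), and on the TMM scale miR-18a-5p (-0.32 to 0.25). The difference in the cluster ratio, 0.30, stayed above 0, at 0.21 to 0.38 with single mice left out. The cause of these changes was not tested.

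The replicate numbers do not pair the mice (correlations of deviations -0.13 to 0.07, best with its own number in 1 of 5). A replicate block over the 10 mice with shared numbers, which drops HCC mice 6 to 8, called 146 miRNAs and no member, with lowest adjusted p of 0.930 on the spike-in and 0.105 on the TMM scale by edgeR, and turned miR-19a-3p to 0.13. With 8 and 5 mice and this spread, an interval of 1 member on the spike-in scale is more than 2 log2 units wide, so that changes within it were not detectable.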

Other observations

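Relative to miR-451a, the main miRNA of red cells, miR-25-3p was higher in most HCC mice. The ratio of miR-25-3p to miR-451a was 0.424 to 0.695 in non-HCC mice and 0.492 to 2.20 in HCC mice, with 6 of 8 HCC mice (4 of 5 libraries with similar pairs summed) above the non-HCC range. The nearest of them to that range was HCC mouse 4, at 0.705. The ratio of miR-25-3p to miR-451a varied among the HCC mice. It was highest in HCC mice 6 and 1, at 2.20 and 1.97, where the levels of both miRNAs were the lowest. The ratio of miR-92a-3p to miR-451a was likewise above the non-HCC range in 6 of 8 HCC mice. It was 0.182 to 0.344 in non-HCC and 0.216 to 2.03 in HCC mice. miR-451a itself had a log2 fold change of -0.64 on the spike-in and -1.40 on the TMM scale, lower than any member. Relative to the median of all miRNAs tested, miR-451a lay at -1.42 and -1.57 on these scales and miR-25-3p at -1.07 and -0.95. A miRNA at the median thus rose more against miR-451a than miR-25-3p did, so that a higher ratio to miR-451a is not particular to these members. These ratios were looked at after the values were seen, and no test was made.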
